A study of Rattus norvegicus with 8 samples.

Results

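Cytochrome P450 genes, the 2 classical epoxide hydrolase genes Ephx1 and Ephx2 and the P450 reductase gene Por were followed in vessels of control and hypertensive rats. A member is a rat gene whose symbol is Cyp, a number, a letter and a number, or 1 of those 3 names, and the symbol came from the transcript accession of each array probe. Of 82 such rat genes, 70 were read by 91 probes, out of 16678 named genes and 45598 probes on the array. The other 12 had no probe matched here. RNA from vessels of male control rats (4 samples) and male rats of a hypertensive disease model (4 samples) was measured with 1 array per sample, so n = 4 in each group. The controls are labelled Wistar-Kyoto, a normotensive laboratory strain. The same strain entry is given for the hypertensive rats, so what strain or procedure made them hypertensive is not settled here. Age, the vessel taken and any treatment are not given in the sources used here. The labels do not say whether each sample came from a different rat or whether RNA of several animals was pooled. The p-values thus measure the spread between these samples, which may be technical.

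Cytochrome P450 enzymes are haem proteins that add oxygen to lipids, hormones and foreign compounds. In the endoplasmic reticulum they take electrons from NADPH through P450 reductase, the product of Por. In vessels, CYP2C and CYP2J enzymes turn arachidonic acid into epoxides that relax smooth muscle, soluble epoxide hydrolase (Ephx2) breaks those epoxides down to diols, and CYP4A and CYP4F enzymes add a hydroxyl group at the end of the fatty acid, giving a constrictor. CYP26 enzymes clear retinoic acid, the hormone made from vitamin A that acts through nuclear receptors.

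Levels below are log2 of the processed signal minus the 75th percentile of the array. A negative level is therefore a signal below that percentile, and levels of different probes are not ranked against each other. Changes are hypertensive minus control, ± the standard error of the limma fit, and a change was called at an adjusted p under 0.05 over all 24552 tests. All 8 arrays shared 1 slide and 1 scan. Between 58.7% and 64.1% of probes per array were well above background. Smooth muscle (5 of 5 markers tested), endothelial (5 of 5) and fibroblast markers (4 of 4) were measured on these arrays, and no such marker passed the threshold in limma, with 0, 1 and 1 at an unadjusted p under 0.05. Hypertensive replicate 4 stood apart in its white adipocyte markers. Marker sums here and below are the log2 of the summed linear levels, so the brightest markers weigh most. The white adipocyte sum was 4.56 there, while hypertensive replicates 1 to 3 had 1.56 to 2.10 and controls 1.18 to 2.63. The 4 tested nerve markers, with 2 at an unadjusted p under 0.05 and 0 past the threshold, summed to 1.46 to 1.98 in controls and 1.93 to 2.63 in hypertensive arrays.

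Of the 70 members on the array, 36 were tested, because a probe exceeded background clearly on 3 or 4 of the 4 arrays in either group. The other 34 were not, and 27 of them were above background on none of the 8 arrays. Among the 36 tested, 1 rose and 1 fell in hypertensive vessels (2 of 36, 5.56%), where 4.53% of all tests passed (2.61% higher and 1.91% lower). The count of members past the threshold is thus near the background. Both were retinoic acid hydroxylase genes, Cyp26b1 and Cyp26a1, and they went opposite ways. The groups did not overlap for 8 members (22.2%), against 13.6% of all tests, and 10 members (27.8%) had an unadjusted p under 0.05, against 20.3%. A change over 2-fold was estimated for 4 members (Cyp26a1, Cyp26b1, Cyp2f4 and Cyp11b3), with 2.56% of all tests past that size. For 30 of the 36 the estimate lay within 0.5 of 0. The median change was -0.026, beside 0.041 over all tests. Over all tests 641 rose and 470 fell, and the split turned to 529 and 586 with quantile normalization and to 422 and 652 with median centring.

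**Figure D1:**
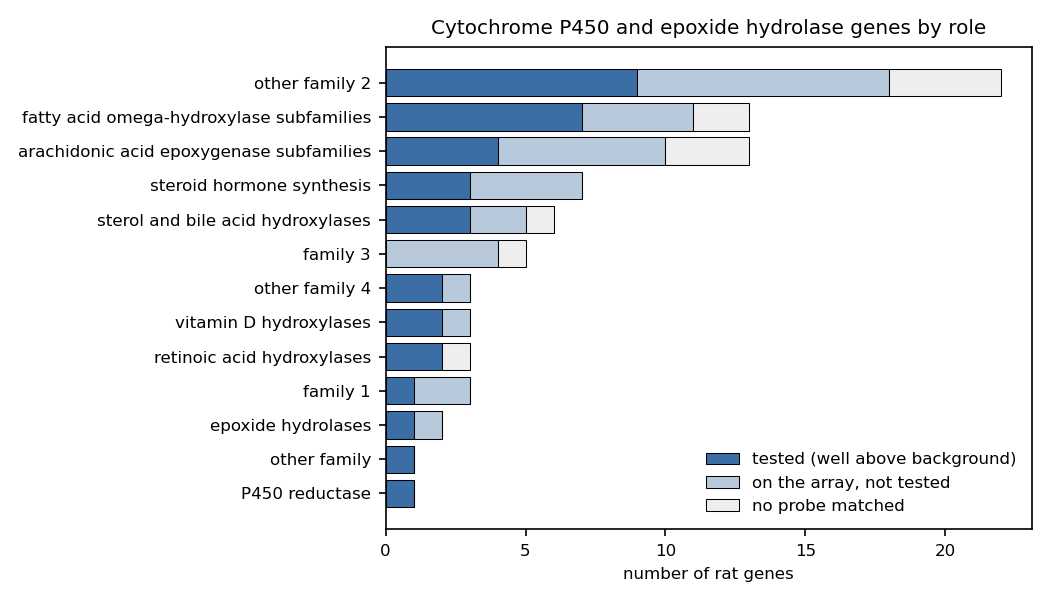
Number of rat genes in each role (bars), divided into genes tested, genes on the array that were not tested, and genes with no probe matched. The epoxygenase subfamilies had 4 tested genes of 10 on the array, the omega-hydroxylase subfamilies 7 of 11, and family 3 had 0 of 4.

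**Figure D2:**
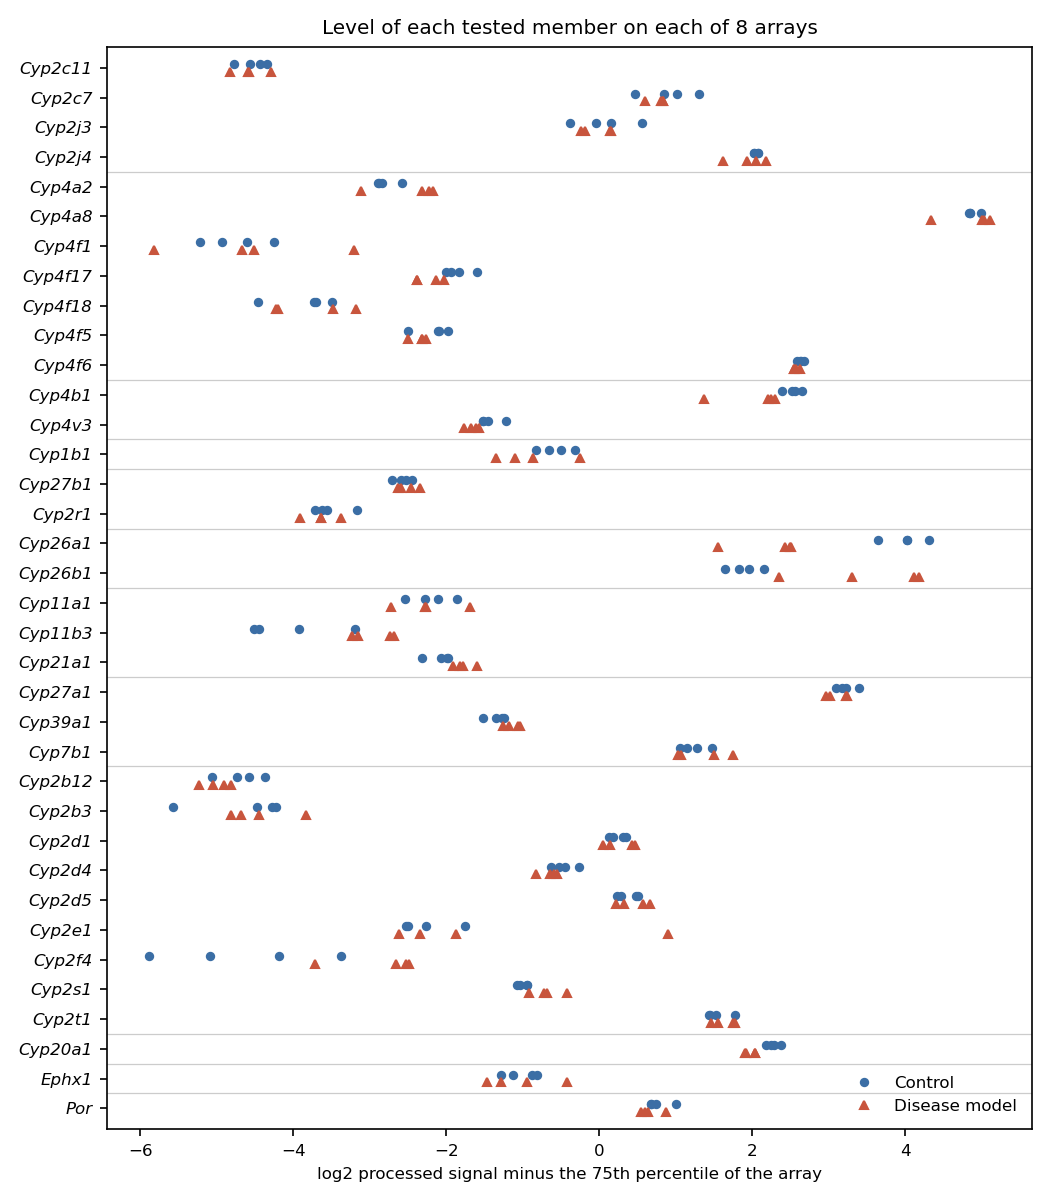
Level of each of the 36 tested members on each array (x axis, log2 processed signal minus the array's 75th percentile), with circles for the 4 control and triangles for the 4 hypertensive arrays and grey lines between roles. Cyp26a1 and Cyp26b1 show the separated groups in opposite order, and Cyp2e1 shows 1 hypertensive array at 0.89, far right of the other 7.

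Cyp26a1, whose enzyme inactivates retinoic acid and whose gene is itself switched on by retinoic acid, was 3.36-fold lower in hypertensive vessels. In replicate order, here and below, its levels were 4.02, 3.64, 4.31 and 4.02 in the controls and 2.43, 2.51, 1.56 and 2.49 in the hypertensive arrays. Every hypertensive array was below every control, with hypertensive replicate 3 the lowest. The change was -1.75 ± 0.23 (95% confidence interval -2.27 to -1.22, adjusted p = 0.0040). It remained past the threshold under all alternatives run, between -1.87 and -1.52 with adjusted p from 0.0010 to 0.041.

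Cyp26b1 encodes a second retinoic acid hydroxylase, and it was 3.01-fold higher. Levels were 1.82, 1.65, 1.96 and 2.15 in the controls and 3.30, 4.11, 2.35 and 4.18 in the hypertensive arrays. The groups did not overlap, although hypertensive replicate 3 lay close to the controls. The change was 1.59 ± 0.37 (95% confidence interval 0.75 to 2.43, adjusted p = 0.047). This call was lost when any 1 array but hypertensive replicate 3 was left out (changes of 1.36 to 1.68, adjusted p of 0.067 to 0.12), and without hypertensive replicate 3 the change was 1.97 (adjusted p = 0.0038). It was also lost with quantile normalization, median centring, the replicate block or no filter on dim probes (adjusted p = 0.054, 0.059, 0.088 and 0.10). Each of these genes was read by 1 probe, well above background on all 8 arrays. The third gene of the family, Cyp26c1, had no probe matched.

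The difference Cyp26b1 minus Cyp26a1 within an array does not depend on how arrays are scaled to each other. It was chosen after the values were seen. It was -2.20, -1.99, -2.35 and -1.87 in the controls and 0.87, 1.60, 0.80 and 1.69 in the hypertensive arrays. The zero point depends on the pair of probes, so only the shift between groups is read, and it was 3.34. It is a description with no test, since the pair was picked for groups that do not overlap and go opposite ways. In bulk RNA, fewer cells of a type and less RNA per cell cannot be told apart, for this and all results below.

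**Figure D3:**
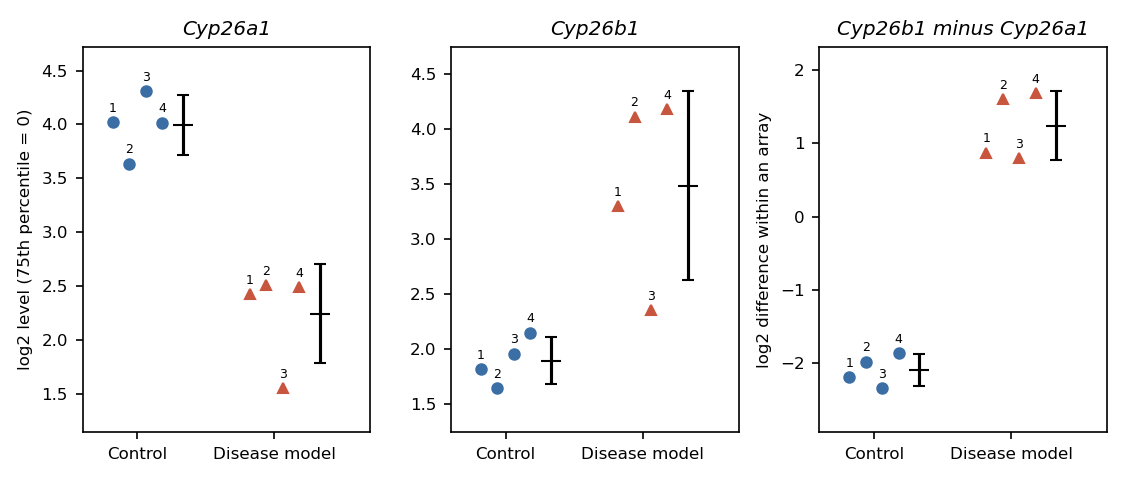
Levels of Cyp26a1 and Cyp26b1 and their difference within each array (y axes, log2), with 1 point per array numbered by replicate and the group mean with its SD (n = 4) beside the points. Control arrays lie at 3.64 to 4.31 for Cyp26a1 and 1.65 to 2.15 for Cyp26b1, and hypertensive arrays at 1.56 to 2.51 and 2.35 to 4.18.

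The upstream sequences of this pair are shown because retinoic acid receptors bind direct repeats of a short core motif, and the search for such repeats gave different results for the 2 genes. Sequences are from RefSeq, build GRCr8, 250 bases up to the annotated start, 5′ to 3′ on the strand of the gene. Cyp26a1 lies at chr1:244883572-244883821 on the plus strand and Cyp26b1 at chr4:118616177-118616426 on the minus strand. Capitals mark the cores of a direct repeat.
Cyp26a1: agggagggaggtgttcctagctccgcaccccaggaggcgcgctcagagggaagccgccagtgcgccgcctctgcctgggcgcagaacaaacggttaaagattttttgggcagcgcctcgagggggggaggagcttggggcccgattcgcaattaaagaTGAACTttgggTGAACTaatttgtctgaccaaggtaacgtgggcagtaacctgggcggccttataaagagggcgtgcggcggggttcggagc
Cyp26b1: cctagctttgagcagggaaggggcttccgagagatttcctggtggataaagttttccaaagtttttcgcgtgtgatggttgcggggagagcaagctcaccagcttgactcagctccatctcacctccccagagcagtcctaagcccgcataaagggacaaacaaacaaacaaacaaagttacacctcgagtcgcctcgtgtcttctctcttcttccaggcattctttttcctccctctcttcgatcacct

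The cores searched were AGGTCA and AGTTCA, on both strands and chosen after the values were seen, in the RefSeq window of 300 bases that runs to 50 bases past the start. A pair in the same orientation with a gap of 5 bases was present once for Cyp26a1, on the minus strand, from 92 to 76 bases before the start. Read on that strand it is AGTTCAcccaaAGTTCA. The same pattern was present in 10 of 33469 rat promoter windows (0.0299%), that of Cyp26a1 included. With both cores AGTTCA it was present in 3, again with Cyp26a1. That narrower pattern was spelled from the Cyp26a1 site, so its presence there was fixed in advance. Of 58 windows for 55 members, the Cyp26a1 window alone held it. Cyp26b1 had no core in the 250 bases shown. A gap of 2 bases was found in 17 windows (0.0508%) and in no member's. A single core stood in 27.9% of all windows and in 30 of the 58 member windows. A match is a description of these letters, and its absence from this window says nothing about binding elsewhere.

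The retinoid handling genes were listed to set this pair in its pathway. Of 13 tested genes, 0 passed in limma and 2 had an unadjusted p under 0.05, with a median change of -0.11. Aldh1a2, which makes retinoic acid from retinaldehyde, had levels of -5.14, -4.52, -5.55 and -4.68 in the controls and -3.94, -4.08, -4.28 and -3.33 in the hypertensive arrays. The groups did not overlap, at 1.06 ± 0.27 (adjusted p = 0.062), and it passed with the replicate block (adjusted p = 0.046), while with normexp background correction it was 0.21. Lrat, which stores retinol as ester, was 1.85, 2.90, 1.38 and 1.71 in the controls and 1.12, 1.17, 0.43 and 1.37 in the hypertensive arrays. Here too all hypertensive arrays were lower, at -0.94 ± 0.33 (adjusted p = 0.15). The other 11 genes had estimates between -0.31 (Aldh1a1) and 0.39 (Rbp4). They include the retinoic acid receptor genes Rara (0.23 ± 0.10), Rarb (-0.15 ± 0.10) and Rarg (-0.06 ± 0.11), the retinoic acid carrier Crabp2 (-0.11 ± 0.13), and Dhrs3, which turns retinaldehyde back to retinol (-0.15 ± 0.16).

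Epithelial marker levels, like Cyp26a1, were lower in the hypertensive group. Hypertensive replicate 3 had the lowest Cyp26a1 (1.56). The lowest array differed between markers. It was hypertensive replicate 1 for Krt18 (1.43) and the marker sum (1.61), replicate 2 for Krt8 (-2.15) and replicate 3 for Cdh1 (-3.79). Of the 4 markers, 3 were tested and Krt8 (-0.87 ± 0.14, adjusted p = 0.0087) and Cdh1 (-0.62 ± 0.14, adjusted p = 0.048) fell, with Krt18 at -0.71 ± 0.19 (adjusted p = 0.077). Epcam was above background on 0 arrays. The sum of the 3 tested markers, mostly that of the brightest, Krt18, was 2.43 to 2.89 in the controls and 1.61 to 2.40 in the hypertensive arrays. The part of these markers in the Cyp26a1 result was not tested. Of 4 macrophage markers 0 passed and 3 had an unadjusted p under 0.05, all of them lower. These were Csf1r (-0.49 ± 0.12, adjusted p = 0.056), Cd163 (-0.68 ± 0.17, adjusted p = 0.060) and Adgre1 (-0.47 ± 0.15, adjusted p = 0.12). Cd68, the brightest, was at -0.05 ± 0.13. Summed levels, mostly those of Cd68, were 2.83 to 3.13 in the controls and 2.53 to 2.97 in the hypertensive arrays.

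The epoxygenase subfamilies held 10 members on the array, and 4 were tested. None of the 4 passed and none had an unadjusted p under 0.05. Cyp2j4, an arachidonic acid epoxygenase, was 2.07, 2.02, 2.08 and 2.02 in the controls and 1.62, 1.92, 2.04 and 2.18 in the hypertensive arrays. The hypertensive arrays spread on both sides of the tightly grouped controls, and the change was -0.10 ± 0.12 (95% confidence interval -0.37 to 0.17). Cyp2j3, its close relative, was at -0.11 ± 0.19. Cyp2c11, the main male-specific P450 of rat liver, was dim on all 8 arrays, between -4.83 and -4.30, with a change of -0.04 ± 0.14.

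Cyp2c7 was at 0.46 to 1.30 in the controls and 0.60 to 0.83 in the hypertensive arrays, with a change of -0.14 ± 0.17. That value rests on 1 of its 5 probes, since the other 4 were above background on 0 of 8 arrays. The remaining members of these subfamilies, Cyp2c12, Cyp2c13, Cyp2c22, Cyp2c23, Cyp2c24 and Cyp2j10, were above background on no array. Cyp2c23 encodes the main epoxygenase of rat kidney.

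Of 11 members of the CYP4A and CYP4F omega-hydroxylase subfamilies on the array, 7 were tested, 0 passed and 1 had an unadjusted p under 0.05. Cyp4f17 was -1.60, -2.01, -1.83 and -1.94 in the controls and -2.38, -2.38, -2.14 and -2.03 in the hypertensive arrays. Its groups did not overlap, but by a narrow margin between control replicate 2 and hypertensive replicate 4, and the change was -0.39 ± 0.12 (adjusted p = 0.12). Cyp4f6 varied little, from 2.59 to 2.67 in the controls and from 2.54 to 2.62 in the hypertensive arrays. Its 95% confidence interval was -0.21 to 0.10 around a change of -0.06, and the second kept probe gave -0.08. Cyp4f5 was at -0.18 ± 0.12, Cyp4f1 at 0.20 ± 0.48 and Cyp4f18 at 0.08 ± 0.28.

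Cyp4a8, which encodes a fatty acid omega-hydroxylase of the CYP4A group, gave 4.84, 4.85, 4.99 and 4.84 in the controls and 5.03, 5.10, 5.0 and 4.34 in the hypertensive arrays. The first 3 hypertensive arrays were above all controls and replicate 4 was below all of them. The change was -0.01 ± 0.16 (adjusted p = 0.99), and 0.17 without hypertensive replicate 4 (adjusted p = 0.24). Only 1 of its 3 probes was kept, and the other 2 were above background on 0 arrays. The signal is therefore that of 1 probe and cannot be assigned to the gene by agreement between probes.

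Cyp4a2, a vascular and kidney omega-hydroxylase gene of the rat, showed the same order. Its levels were -2.88, -2.57, -2.85 and -2.89 in the controls and -2.17, -2.31, -2.23 and -3.11 in the hypertensive arrays. Over all arrays the change was 0.34 ± 0.20 (adjusted p = 0.39), and without hypertensive replicate 4 it was 0.56 (adjusted p = 0.023). Cyp4a1, Cyp4a3 and Cyp4f4 were above background on no array and Cyp4f40 on 1. The CYP4A, CYP4F, CYP2C, CYP2D and CYP11B groups hold related genes. Probe sequences were not compared, so which relative gave a probe its signal is uncertain.

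Cyp2e1, which oxidises ethanol and fatty acids and is also active in fat cells, followed the array with the most adipocyte signal. Levels were -2.52, -2.26, -1.76 and -2.51 in the controls and -1.87, -2.34, -2.62 and 0.89 in the hypertensive arrays. Replicate 4 stood above the other 7 arrays. On the same array the adiponectin gene Adipoq was at 3.46, against -1.35 to 1.55 on the other 7, and 4 of 5 white adipocyte markers were tested with 0 past the threshold and 0 at an unadjusted p under 0.05 (Plin1 was above background on 1 array). The Cyp2e1 change was 0.78 ± 0.69 (adjusted p = 0.57) and -0.02 without that replicate. The part of fat in it was not tested.

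**Figure D4:**
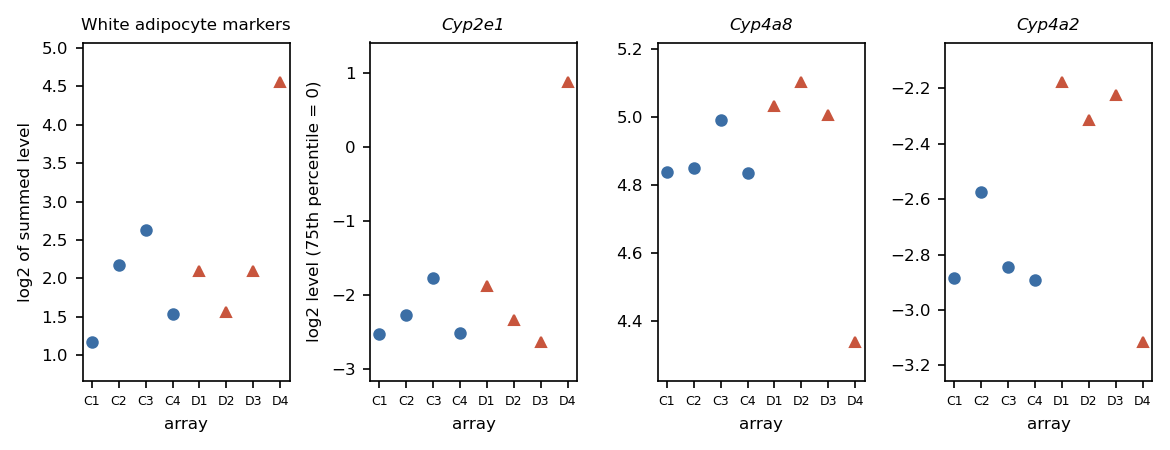
Summed level of the 4 tested white adipocyte markers (log2) and levels of Cyp2e1, Cyp4a8 and Cyp4a2 on each array (C1 to C4 controls, D1 to D4 hypertensive), with a separate y scale in each panel. D4 is the highest array for the markers and for Cyp2e1, and the lowest for Cyp4a8 and Cyp4a2.

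Of the classical epoxide hydrolase pair, Ephx1 was tested and Ephx2 was not. Ephx1, the microsomal epoxide hydrolase gene, was -1.13, -0.81, -1.29 and -0.88 in the controls and -1.47, -0.43, -0.95 and -1.29 in the hypertensive arrays. The groups overlapped throughout, with a change of -0.0026 ± 0.22 (95% confidence interval -0.50 to 0.50, adjusted p = 1.0). Ephx2, soluble epoxide hydrolase, was read by 1 probe that was above background on 0 of 8 arrays, so neither a level nor a change can be given. Of further hydrolases, Ephx3 was at 0.12 ± 0.35. It entered the tests through the controls (above background on 4 control and 2 hypertensive arrays), so that estimate is not read.

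Por was 0.68, 1.0, 0.75 and 0.68 in the controls and 0.54, 0.87, 0.64 and 0.59 in the hypertensive arrays. The groups overlapped, and the change was -0.12 ± 0.11 (95% confidence interval -0.36 to 0.13, adjusted p = 0.59). Of the 9 electron donors and haem-binding partners, cytochrome b5 and adrenodoxin genes among them, 0 passed and 2 had an unadjusted p under 0.05, Cyb5r1 (-0.18 ± 0.07) and Pgrmc2 (0.18 ± 0.07). Of 8 genes of haem synthesis 1 fell, Ppox, which makes the last intermediate before haem, at -0.38 ± 0.07 (1.30-fold lower, adjusted p = 0.019). Ppox lost its call without control replicates 1, 2 or 4 or hypertensive replicate 2, with adjusted p up to 0.061, and with no detection filter, the mean of its probes or the replicate block (up to 0.096). Alas1, the rate-limiting enzyme of that route, was at -0.03 ± 0.11.

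Among family 1 genes, which the aryl hydrocarbon receptor switches on, Cyp1b1 alone was tested. Levels were -0.32, -0.50, -0.83 and -0.66 in the controls and -0.25, -1.35, -1.10 and -0.87 in the hypertensive arrays. In the hypertensive group 3 arrays were below all controls and replicate 1 was above them all. The change was -0.32 ± 0.22 (adjusted p = 0.46), with -0.24 and -0.21 on its other 2 kept probes. It was -0.53 without hypertensive replicate 1 and -0.17 without hypertensive replicate 2. Cyp1a1 was above background on 1 array and Cyp1a2 on none. Of 16 xenobiotic and lipid sensing receptors 0 passed and 3 had an unadjusted p under 0.05, among them Ahrr, a repressor of the aryl hydrocarbon receptor, at 0.47 ± 0.17. Nr1i3, the receptor CAR, had the smallest p of the list, but it entered the tests through the controls (above background on 3 control and 0 hypertensive arrays), so no size is given. Its place among the 3 and its call without control replicate 2 (adjusted p = 0.021) have the same limit, so neither is read. The receptor gene Ahr itself was at -0.02 ± 0.20. Of 4 tested genes listed as targets of that receptor, a list that also holds Lrat, 1 rose, the glucuronidation gene Ugt1a6 (0.59 ± 0.13, adjusted p = 0.035), and 3 had an unadjusted p under 0.05, with a list median of -0.25. The other two were Lrat, given above, and the quinone reductase gene Nqo1 (-0.53 ± 0.14, adjusted p = 0.070), each lower in every hypertensive array than in any control. The Ugt1a6 call was lost without 6 of the 8 arrays (all but control replicate 2 and hypertensive replicate 3), with median centring, no detection filter or the replicate block, and with the mean of its probes (0.38, adjusted p = 0.20), and its transcript shares most exons with other Ugt1a genes.

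Of the 7 steroid hormone enzyme genes 3 were tested and 0 passed, with 2 at an unadjusted p under 0.05. Cyp11b3, of the aldosterone synthase and 11-beta-hydroxylase group, was -4.51, -3.92, -3.19 and -4.44 in the controls and -2.68, -2.73, -3.23 and -3.15 in the hypertensive arrays. Only control replicate 3 and hypertensive replicate 3 crossed, and the change was 1.07 ± 0.28 (adjusted p = 0.074). Without control replicate 3 the change was 1.34 (adjusted p = 0.013), with the mean of the kept probes 0.61 (adjusted p = 0.046), and with normexp background correction 0.34. Its second kept probe gave 0.15, so the probes disagree in size.

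Cyp21a1, steroid 21-hydroxylase, was -1.98, -2.0, -2.31 and -2.07 in the controls and -1.82, -1.60, -1.92 and -1.79 in the hypertensive arrays. Every hypertensive array was higher, by 0.31 ± 0.11 (adjusted p = 0.15), or 0.19 with normexp. Cyp11a1, which starts steroid synthesis from cholesterol, was at -0.05 ± 0.22, with its second probe above background on 1 array. Cyp17a1 was above background on 2 arrays, Cyp11b2 (aldosterone synthase) on 1, and Cyp11b1 and Cyp19a1 (aromatase) on 0. Of the adrenal cortex markers Mc2r, Nr5a1 and Hsd3b1 were above background on 0 arrays and Star on 2. Of 11 tested genes of steroid and vitamin D handling 0 passed and 3 had an unadjusted p under 0.05. Hsd11b1 was lower (-0.33 ± 0.14, adjusted p = 0.24). Vdr, the vitamin D receptor gene (0.53 ± 0.17), and Hsd11b2, which inactivates glucocorticoids (0.67 ± 0.22), were higher. With normexp Vdr and Hsd11b2 were at 0.12 and 0.33. Vdr passed without control replicate 4 (0.68, adjusted p = 0.041) and Hsd11b2 without hypertensive replicate 3 (0.86, adjusted p = 0.039).

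The vitamin D hydroxylase genes Cyp27b1, which makes the active hormone, and Cyp2r1, which makes its precursor, were at 0.06 ± 0.10 and -0.12 ± 0.15. For Cyp27b1 the second probe was above background on 0 arrays. Cyp24a1, which inactivates the hormone, was above background on none.

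Sterol hydroxylases were measured at 3 of 5 genes, with 0 past the threshold and 0 at an unadjusted p under 0.05. Cyp39a1, an oxysterol hydroxylase, was -1.27, -1.25, -1.35 and -1.52 in the controls and -1.06, -1.18, -1.04 and -1.26 in the hypertensive arrays. Only hypertensive replicate 4 fell among the controls, and the change was 0.21 ± 0.09 (adjusted p = 0.25). Cyp27a1, the mitochondrial sterol hydroxylase, was steady at 3.09 to 3.40 and 2.97 to 3.24 (-0.11 ± 0.10), and Cyp7b1 was at 0.10 ± 0.17. The liver bile acid enzymes Cyp7a1 and Cyp8b1 were above background on no array. Of 10 genes of oxysterol handling 1 fell, the sterol exporter Abcg1 (-0.66 ± 0.11, 1.58-fold lower, adjusted p = 0.014), a call lost with the replicate block only (adjusted p = 0.061).

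Among other members of family 4, both tested genes had an unadjusted p under 0.05 and neither passed. Cyp4b1, which hydroxylates fatty acids and activates some toxins, was 2.52, 2.55, 2.39 and 2.65 in the controls and 1.37, 2.30, 2.25 and 2.20 in the hypertensive arrays. All hypertensive arrays were lower, replicate 1 most, at -0.50 ± 0.20 (adjusted p = 0.20), and -0.28 without that replicate. Its second kept probe gave -0.68. Cyp4v3, a fatty acid omega-hydroxylase gene, was -1.45, -1.22, -1.52 and -1.52 in the controls and -1.77, -1.58, -1.62 and -1.68 in the hypertensive arrays, again without overlap, at -0.23 ± 0.095 (adjusted p = 0.21). Cyp4x1 was above background on none.

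Cyp20a1, an orphan P450 with no settled substrate, was 2.38, 2.18, 2.28 and 2.24 in the controls and 1.91, 1.90, 2.03 and 2.03 in the hypertensive arrays. The groups were tight and did not overlap. The change was small, at -0.30 ± 0.08 (1.23-fold lower, adjusted p = 0.074), and it passed with normexp only (-0.32, adjusted p = 0.046).

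In the remaining family 2 genes, 9 were tested, 0 passed and 2 had an unadjusted p under 0.05. Cyp2f4, a lung P450, was -5.88, -4.18, -5.09 and -3.38 in the controls and -3.72, -2.49, -2.66 and -2.52 in the hypertensive arrays. Control replicate 4 lay above hypertensive replicate 1, so the groups overlapped, and 3 of 4 control arrays were above background. The change of 1.79 ± 0.51 (adjusted p = 0.091) was the largest estimate among members, but became 0.57 with normexp. It passed without control replicate 4 (2.21, adjusted p = 0.037) and with the replicate block (adjusted p = 0.038). Cyp2s1, an extrahepatic P450, was -0.95, -1.08, -0.95 and -1.04 in the controls and -0.68, -0.73, -0.43 and -0.92 in the hypertensive arrays. The lowest hypertensive array was just above the highest control, with a change of 0.32 ± 0.11 (adjusted p = 0.15).

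Cyp2b12, a skin P450, was -4.58, -4.37, -5.06 and -4.73 in the controls and -5.24, -4.81, -4.91 and -5.05 in the hypertensive arrays. It entered the tests through the controls (3 of 4 arrays above background, against 1 of 4), so its change of -0.32 ± 0.16 is not read as a fall. The drug-metabolising genes Cyp2d1, Cyp2d4 and Cyp2d5 were at 0.03 ± 0.12, -0.18 ± 0.11 and 0.07 ± 0.12, Cyp2t1 at 0.09 ± 0.11 and Cyp2b3 at 0.19 ± 0.32. None of the 4 family 3 genes on the array (Cyp3a2, Cyp3a9, Cyp3a18 and Cyp3a62), the main drug-metabolising P450s of liver, was above background on any array. Nor were Cyp2a1, Cyp2a3, Cyp2b2, Cyp2b15, Cyp2b21 and Cyp2d2, while Cyp2a2, Cyp2d3 and Cyp2g1 were above background on 1. Of the 6 hepatocyte markers 3 were tested, with 0 past the threshold. Tf was at 3.59 to 3.81 in the controls and 3.37 to 3.72 in the hypertensive arrays (-0.12 ± 0.10). Serpina1 and Ttr had changes of -0.44 ± 0.28 and -0.68 ± 0.47. The untested hepatocyte markers were Fgb, above background on 0 arrays, Apoa1 on 1 and Alb on 2.

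**Figure D5:**
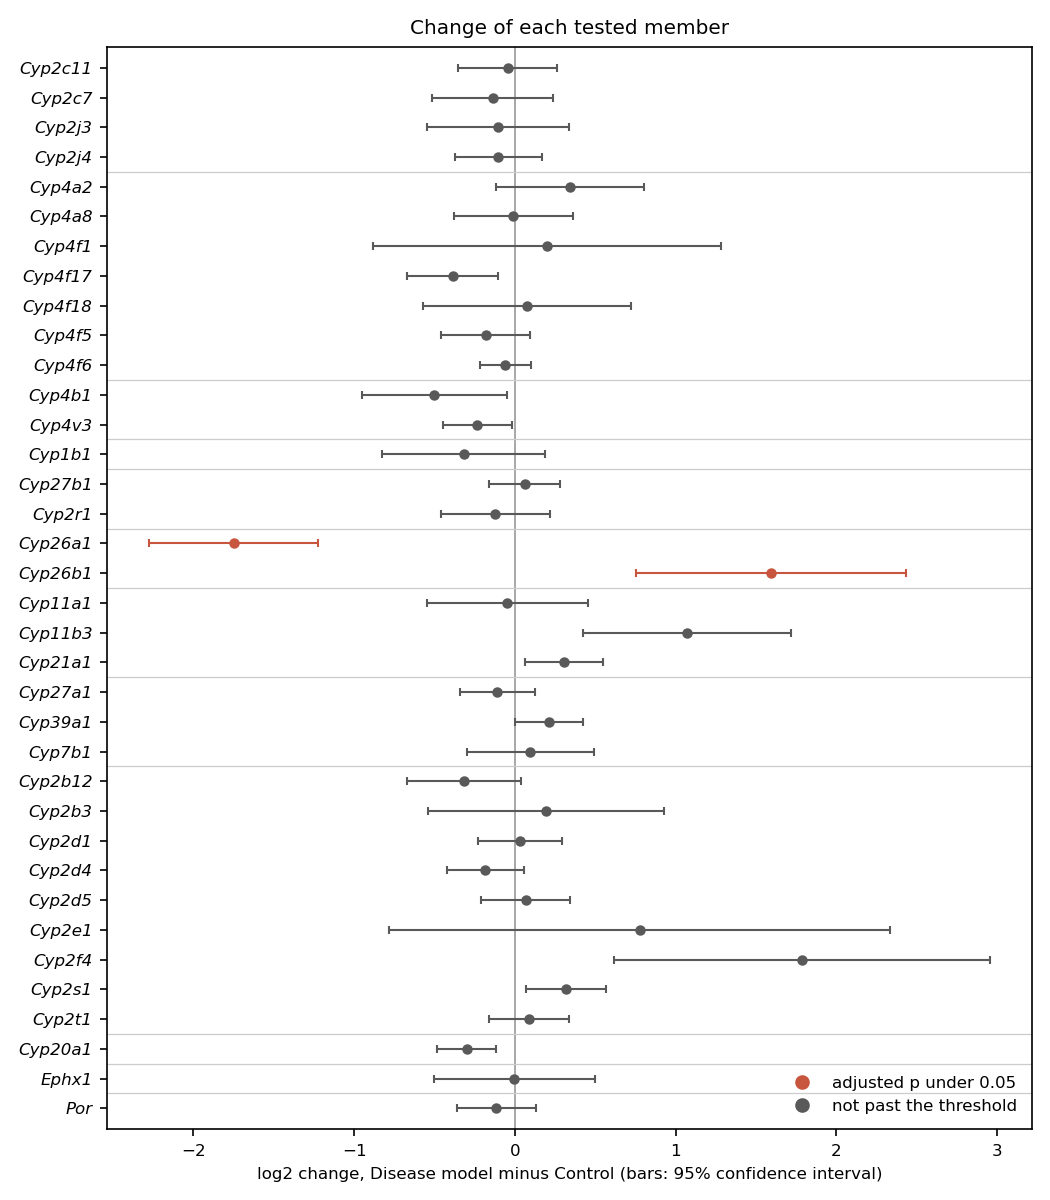
Log2 change of each tested member, hypertensive minus control, with its 95% confidence interval (bars, 4 arrays per group) and grey lines between roles. Cyp26a1 (-1.75) and Cyp26b1 (1.59) are past the threshold, and the bars of Cyp2f4, Cyp2e1 and Cyp4f1 span 0.62 to 2.96, -0.78 to 2.33 and -0.88 to 1.28.

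Around the arachidonic acid branches, the cyclooxygenase gene Ptgs2 fell (-1.05 ± 0.22, adjusted p = 0.031) and was the 1 gene of 12 for arachidonic acid release and other oxygenases that passed, but not with the replicate block or no detection filter. Leaving out hypertensive replicate 3 or 4, or control replicate 1, 3 or 4, also ended that call. Pla2g4a, the phospholipase that frees arachidonic acid, was at -0.39 ± 0.10 (adjusted p = 0.064). Of 5 P450 or hydrolase genes with other symbols, 0 passed and 0 had an unadjusted p under 0.05. These were Ptgis (prostacyclin synthase, -0.03 ± 0.14), Tbxas1 (thromboxane synthase, 0.04 ± 0.13), Cyp51 (0.40 ± 0.19), Ephx3 and Mest. Among 9 listed targets of these lipids in vascular muscle, 2 rose. Kcnmb1, a subunit of the calcium-activated potassium channel that epoxides open, rose by 0.82 ± 0.11 (adjusted p = 0.0050). Kcnma1, the other gene of that channel on the list, was at 0.03 ± 0.29 (adjusted p = 0.97). Trpc6, a cation channel, rose by 1.01 ± 0.22 (adjusted p = 0.040). Trpc6 lost its call in 7 of the 8 fits that leave out an array, hypertensive replicate 3 being the exception. The replicate block, median centring, quantile normalization and no detection filter ended it too, and its change under normexp was 0.60. Gpr75, a reported receptor for the omega-hydroxylase product, was at 0.03 ± 0.13. Over all 10 lists 3 of 96 tested genes rose and 3 fell (6.25%, beside 4.53% of all tests), and 21 had an unadjusted p under 0.05.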

How the data were processed

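Per the file headers, the scanner files hold spot intensity already background-subtracted by Agilent Feature Extraction version 10.7.1.1 (the submitters' processing notes give 12.1.1.1). The deposited value table is a linear ratio of that signal to a constant near each array's 75th percentile (of probes above 1, 0 were over 5% off) and served as an alternative. Its column medians were 0.086 to 0.101. Per the labels' protocols 100 ng RNA was labelled with Cy3. Outlier spots (213 to 396 per array) were dropped where another spot remained, spots were averaged per probe as log2, and the 75th percentile (357 to 503 in processed signal) was subtracted. No gene spot was saturated. Precision is limited by how many arrays there are. A probe counted as detected where 50% or more of its spots were well above background, and 27822 probes were kept.

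RefSeq (GRCr8) accessions named 46.6% of probes. For a gene with several kept probes the brightest was used. Groups were compared with limma 3.58.1 in R 4.3.3, with Benjamini-Hochberg adjustment, tested on simulated data. Every adjusted p is from this fit unless an alternative is named. Each alternative was fitted separately and adjusted over its own tests. Members and lists were chosen with earlier results of these data known. The text names every tested member, gives all arrays for the 12 of smallest p, Ephx1 and Por, and from each partner list names genes past the threshold or the 2 of smallest p. Others were added after their values were seen. No mean signal column was in the files, so normexp used the median signal (offset 50). Controls and hypertensive arrays fill separate positions of the slide, so position and group cannot be told apart.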

Additional observations from a re-analysis of the deposited data

Results flagged for a closer look

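Across the 36 tested members, each group of 4 arrays was examined for 1 array far from the other 3, which chance alone gives in about 1 of 20 groups. Of 72 groups 8 had such an array. Hypertensive replicate 3 was lowest for Cyp26a1 (1.56, against 2.43 to 2.51 on the other 3) and for Cyp2c7 (0.60, against 0.81 to 0.83). Hypertensive replicate 4 was lowest for both Cyp4a genes, Cyp4a8 (4.34, against 5.0 to 5.10) and Cyp4a2 (-3.11, against -2.31 to -2.17). It was also the array with the highest adipocyte markers, and the part of that in the 2 values was not tested. Hypertensive replicate 1 was lowest for Cyp4b1 (1.37, against 2.20 to 2.30) and Cyp2f4 (-3.72, against -2.66 to -2.49). Among the controls, replicate 2 was highest for Cyp4a2 (-2.57, against -2.89 to -2.85) and replicate 3 for Cyp4a8 (4.99, against 4.84 to 4.85), differences of small size.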

How the results depend on the processing

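Cyp26a1 kept its direction and its call under all 9 alternatives and without any 1 array. Its 1 probe was above background on all 8 arrays. The detection filter settings and the mean of kept probes therefore left its values unchanged and altered only the other tests. The deposited value table holds the same signal over a constant. The count of members past the threshold, 2, became 1 with quantile normalization, median centring or no detection filter, each time with 0 higher, and was 1 to 2 without single arrays (0 to 1 higher). With the mean of kept probes 2 were higher, and with normexp 2 were lower. The members' median change was -0.067 with quantile normalization, -0.11 with median centring, 0.092 without the filter and -0.073 to -0.012 without single arrays. All tests past the threshold numbered 641 without the filter, where more dim probes were tested, 675 with the replicate block and 629 to 1473 without single arrays. Partner genes past the threshold, 6, became 2 without the filter, 2 with the block and 2 to 7 without single arrays. The replicate numbers did not pair the samples (correlations of same-numbered deviations 0.21, 0.12, -0.0036 and -0.15). With the replicate block 2 members passed, Cyp26a1 and Cyp2f4.

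Some estimates that were not called turned sign, most of them near 0, and Cyp2e1 (0.78) only without hypertensive replicate 4. With median centring this held for Cyp27b1 (-0.025), Cyp2d1 (-0.054), Cyp2d5 (-0.019) and Cyp4f18 (-0.0089), and with quantile normalization for Cyp4f18 (-0.014) and Ephx3 (-0.00012). With array weights it held for Cyp2d1 (-0.020), Cyp4a8 (0.080), Ephx1 (0.16) and Ephx3 (-0.15), and with normexp for Cyp4a8 (0.0019) and Ephx1 (0.012). Without single arrays the ranges were -0.23 to 0.11 for Cyp11a1, -0.12 to 0.33 for Cyp2b3, -0.14 to 0.041 for Cyp2c11, -0.033 to 0.11 for Cyp2d1, -0.0073 to 0.14 for Cyp2d5, -0.015 to 1.16 for Cyp2e1, -0.26 to 0.054 for Cyp2j3, -0.18 to 0.0030 for Cyp2j4, -0.086 to 0.17 for Cyp4a8, -0.25 to 0.62 for Cyp4f1, -0.13 to 0.23 for Cyp4f18, -0.038 to 0.20 for Cyp7b1, -0.20 to 0.14 for Ephx1 and -0.16 to 0.38 for Ephx3. The cause was not tested. Signal over background limits the 34 untested members, Ephx2 among them.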
